A study of Caenorhabditis elegans with 2 samples.

Results

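The heterochronic genes lin-14, lin-28, hbl-1, lin-42, lin-41, lin-46 and lin-29 time the stages of larval development in the nematode Caenorhabditis elegans. They were examined as 7 of the 19973 protein-coding genes of the annotation in a ChIP-seq profile of the transcription factor ETS-5. They were listed by name, and each was given every ranked region whose summit lay within 2000 bp of one of its start sites or in its gene body. This assigned 127 of the 126002 regions of the series-wide ranked list to the 7 genes, 113 of the 108309 ranked in replicate 1 and 107 of the 92443 ranked in replicate 2. The profile has 1 group and no second condition. It comes from whole L1 larvae of strain OP809, starved after bleaching and collected at 6 hours, in 2 biological replicates. All worms carried wgIs809, a fosmid transgene with ets-5 fused to TY1, EGFP and 3xFLAG and with a working copy of unc-119, in the unc-119 (tm4063) mutant background. The description names an anti-GFP antibody and the antibody label names ets-5. The tagged copy was added to the genome as a fosmid, and in whole larvae the regions of all tissues are mixed, so the cells behind a signal are not known. With 1 group, nothing was tested between conditions, and values are described beside those of all regions or all protein-coding genes.

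Heterochronic genes set which stage's program of cell division each cell lineage runs. In the textbook order, the DNA-binding protein LIN-14 and the RNA-binding protein LIN-28 keep early fates and are shut down by the microRNA lin-4, the zinc finger factor HBL-1 is held back by microRNAs of the let-7 family, and LIN-41 is shut down by let-7 itself so that the zinc finger factor LIN-29 can start the change to adult skin. LIN-42, the worm relative of the clock protein Period, paces the molts, and the gephyrin-like protein LIN-46 opposes early fates downstream of LIN-28. Newly hatched larvae without food arrest before the L1 program begins. ETS-5, an ETS-domain factor best known from the BAG gas-sensing neurons, belongs to a family that binds DNA around a GGAA core.

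At the summit of the best region of 4 of these genes, the genome reads as follows. These stretches are shown because they are the places of highest ETS-5::GFP signal in the series-wide list at each gene. Each runs 50 bases to either side of the summit, on the gene's strand, 5′ to 3′, with GGAA and its reverse complement TTCC in capitals. The sequence is RefSeq's WBcel235 assembly, whose coordinates are those of ce11.
lin-14 chrX:11473172-11473272 plus strand: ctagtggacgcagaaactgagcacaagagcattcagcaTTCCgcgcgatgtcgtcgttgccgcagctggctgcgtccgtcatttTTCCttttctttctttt
hbl-1 chrX:5826178-5826278 plus strand: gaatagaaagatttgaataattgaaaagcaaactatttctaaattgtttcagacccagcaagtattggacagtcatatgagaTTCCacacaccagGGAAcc
lin-42 chrII:1252887-1252987 minus strand: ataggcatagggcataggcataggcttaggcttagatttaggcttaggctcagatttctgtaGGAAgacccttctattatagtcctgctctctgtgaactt
lin-29 chrII:11935862-11935962 minus strand: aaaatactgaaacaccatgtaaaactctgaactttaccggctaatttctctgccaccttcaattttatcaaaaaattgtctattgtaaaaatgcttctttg

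The longer ETS core CCGGAA was in none of the 4 stretches. The short word of either strand occurred 2 times in the stretch of lin-14, 2 times in that of hbl-1, 1 time in that of lin-42 and 0 times in that of lin-29. GC content was 51.5% in the lin-14 stretch, 35.6% in the hbl-1 stretch, 43.6% in the lin-42 stretch and 30.7% in the lin-29 stretch. The best region of lin-46 overlaps an untranslated exon and is not shown.

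CCGGAA, or its reverse complement TTCCGG, was found within 100 bp of the summit in 8 of the 127 regions. The following 6 are shown, with the core in capitals and 20 bases on either side, because they are the regions of these genes in which the core lies outside untranslated exons.
lin-14 chrX:11467855-11467900 plus strand: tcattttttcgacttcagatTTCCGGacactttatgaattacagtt
hbl-1 chrX:5825188-5825233 plus strand: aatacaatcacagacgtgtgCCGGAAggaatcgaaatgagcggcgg
lin-42 chrII:1241099-1241144 minus strand: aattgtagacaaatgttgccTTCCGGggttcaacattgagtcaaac
lin-42 chrII:1236034-1236079 minus strand: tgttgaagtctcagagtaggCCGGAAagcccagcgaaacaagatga
lin-29 chrII:11929757-11929802 minus strand: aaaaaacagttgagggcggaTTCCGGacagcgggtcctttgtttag
lin-29 chrII:11929308-11929353 minus strand: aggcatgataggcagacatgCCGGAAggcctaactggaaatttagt

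The signals of these 6 regions in the series-wide list were 20.4 at lin-14, 22.9 at hbl-1, 39.2 and 23 at lin-42, and 32.4 and 14.9 at lin-29, in the order shown. The first of lin-42 and the first of lin-29 lay above their gene's median signal, 27.5 and 29.3, and the others lay below theirs. None of the 6 was among the 3 regions of highest signal at its gene. The first lin-42 region was overlapped by no region of either replicate. The first lin-29 region was overlapped in replicate 1 alone (27.1) and the second in replicate 2 alone (20.9). The others were overlapped in both replicates. The seventh region with the core was the lin-14 region at the start site inside the gene, described below, and the eighth lay in lin-41. The cores of lin-14, lin-29 (the second) and lin-42 (the second) lay 7, 1 and 10 bases from the summit, and those of the remaining 3 lay 17 to 57 bases away.

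None of the 7 genes had a region in any of the authors' lists that pass their threshold. That threshold is set on the IDR, the irreproducible discovery rate, a value that is low where 2 lists both rank a region high. The count was 0 of 7 genes in the main passing list of 250 regions, 0 in the conservative list of 177, 0 in the list of 21 of replicate 1 and 0 in the list of 26 of replicate 2. Passing was rare throughout: 0.198% of all ranked regions passed, and 1.30% of all protein-coding genes had a region of the main passing list, 0.1% one of replicate 1 and 0.135% one of replicate 2. At shares this low, 0 of 7 is near the background. The series also has another ranked list drawn from both samples, called the second series-wide list here. The lowest global IDR at any of the 7 genes was 0.0584 in the series-wide list (lin-14) and 0.0876 in the second series-wide list (lin-42). It was 0.0557 in the list of replicate 1 (lin-14) and 0.260 in that of replicate 2 (lin-14). The lowest score that passes corresponds to 0.01. At a global IDR of at most 0.05 the count was again 0 of 7, beside 10.1% of all protein-coding genes. At a global IDR of at most 0.1 it was 2 of 7 in the series-wide list, lin-14 and lin-29, beside 25.4% of all protein-coding genes, which is near the background as well. In the second series-wide list it was also 2 of 7, but these were lin-42 and lin-29. It was 1 of 7 in replicate 1 and 0 of 7 in replicate 2. The share over all genes at this limit was computed for the series-wide list only.

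Being in the ranked list is not a call, since the 126002 ranked regions covered 36.9% of the genome. Signal is the value that the authors' caller gave each region. Its scale is unstated, so it is compared here only within a list. The 127 regions had signals of 2.01 to 61.6 with a median of 27.1, beside a median of 23.6 over all ranked regions and of 23.7 over the 108090 regions that the same rule assigned to any protein-coding gene. The highest, 61.6, lay below 69.7, under which the lowest 10% of the passing list fell, and far below that list's median of 83.9. Signals in the passing list went down to 3.14, since passing is set on the IDR and not on signal. Median global IDR was 0.365 in the 127 regions and 0.390 in all regions. The 7 genes therefore held many ranked regions of ordinary signal and none at the level that is usual in the passing list.

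**Figure D1:**
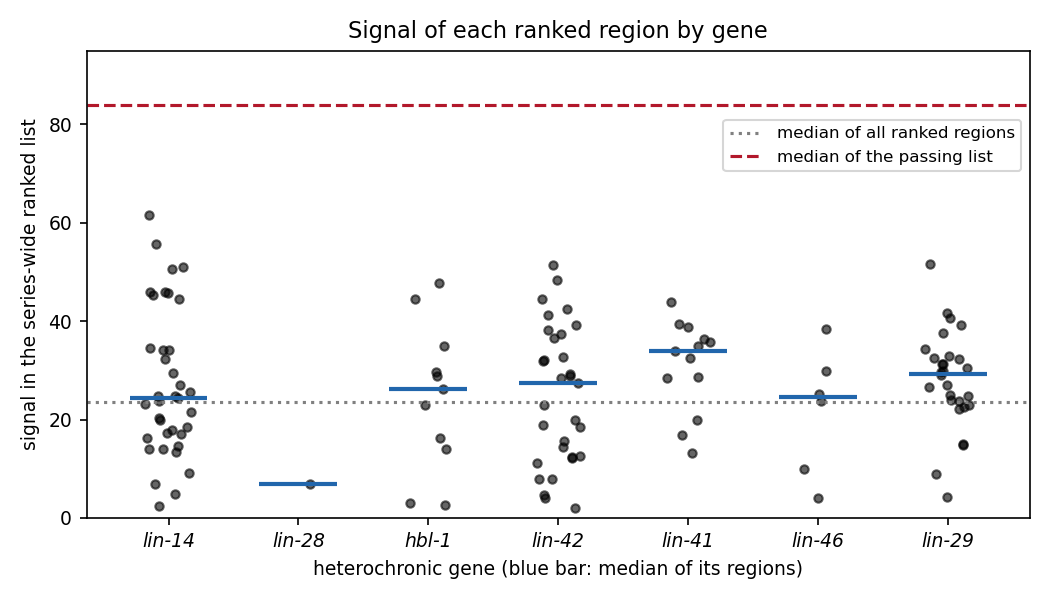
Each point is the signal (caller's scale, vertical axis) of 1 ranked region of the series-wide list at the gene named on the horizontal axis, and the blue bar is the gene's median. All 127 points lie at or below 61.6, under the dashed red line at the passing list's median of 83.9, while the medians of 6 genes lie above the dotted grey line at 23.6, the median of all ranked regions, and that of lin-28 lies below it.

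The order of the genes by best signal was lin-14 (61.6), lin-29 (51.7), lin-42 (51.4), hbl-1 (47.7), lin-41 (43.9), lin-46 (38.4) and lin-28 (6.79). The median of the best signal over all protein-coding genes was 43.9, the same value as for lin-41. By the difference in best signal over the 7 genes, lin-29 and lin-42 were each other's nearest, lin-29 was also the nearest of lin-14, lin-42 that of hbl-1, hbl-1 that of lin-41, lin-41 that of lin-46 and lin-46 that of lin-28. As the percent of protein-coding genes with a lower best signal, the places were 90.4 for lin-14, 73.3 for lin-29, 72.5 for lin-42, 62.1 for hbl-1, 50 for lin-41, 32.1 for lin-46 and 3.60 for lin-28. A longer gene has more chances of a high region: over all protein-coding genes, Spearman's rho between window length and best signal was 0.3. The windows of lin-14, lin-42 and lin-29 were 22312, 21735 and 19702 bp long, beside a median of 4182 bp, and those of lin-28 and lin-46 were 5175 and 4001 bp. The part of gene length in the order was not tested.

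In the replicates' own lists lin-28 was lowest in each, lin-29 had nearly the same place in both, and the other 5 genes had unlike places. The place of lin-14 was 99.2 in replicate 1 and 79.8 in replicate 2, and that of lin-29 was 78.4 in replicate 1 and 78.5 in replicate 2. For lin-42 it was 54.5 in replicate 1 and 83.2 in replicate 2, and for hbl-1 54.8 in replicate 1 and 75.3 in replicate 2. It was 67.1 in replicate 1 and 27.5 in replicate 2 for lin-41, and 16.1 in replicate 1 and 60.3 in replicate 2 for lin-46. The gene lin-28 had no region in replicate 1 and a place of 17.2 in replicate 2. In replicate 1 the order by best signal was lin-14, lin-29, lin-41, hbl-1, lin-42, lin-46, lin-28, and in replicate 2 it was lin-42, lin-14, lin-29, hbl-1, lin-46, lin-41, lin-28. From lin-42 down to lin-46, neighbours in the series-wide order were closer in place than the 2 replicates of either gene were, so their order is not resolved.

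**Figure D2:**
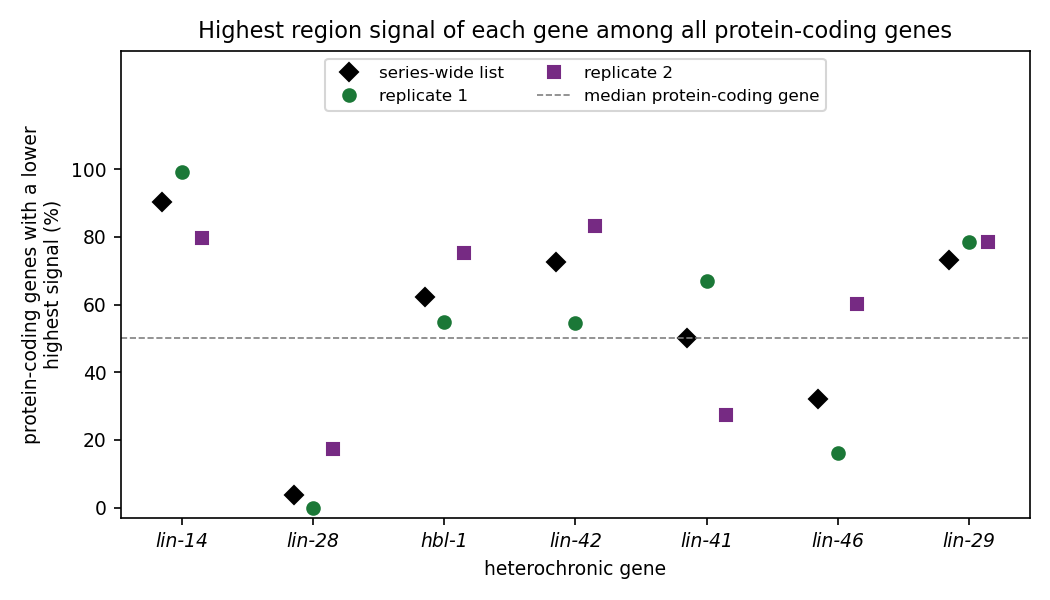
For each gene (horizontal axis) the points give the percent of all protein-coding genes whose best region has a lower signal (vertical axis), in the series-wide list (black diamonds), replicate 1 (green circles) and replicate 2 (purple squares), with a dashed line at the median gene. The points of lin-14 lie between 79.8 and 99.2, those of lin-41 and lin-46 are spread on both sides of the line, and lin-28 lies lowest in all 3 lists, at 0 in replicate 1, where it has no region.

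Among the early-acting genes, lin-14 held the most regions and the highest signal. The gene (WBGene00003003) lies at chrX:11465560-11485871 on the plus strand, with 2 annotated start sites, and 37 ranked regions were assigned to it. Its best region, at chrX:11473067-11473376 in an intron and 7139 bp upstream of the start site inside the gene, had a signal of 61.6 in the series-wide list, place 1806 of 126002. The regions that overlap it had 49.3 in replicate 1, place 185 of 108309, and 18.2 in replicate 2, place 29115 of 92443. This region was thus near the top of replicate 1 and had an ordinary place in replicate 2, and it is in no passing list. Its global IDR was 0.0599 in the series-wide list and 0.111 in the second series-wide list.

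The second region of lin-14 sits on the start site inside the gene. It lies at chrX:11480216-11480525 with its summit 10 bp from that start, in an untranslated exon, holds the core CCGGAA, and had a signal of 55.6. Its overlapping regions had 20.1 in replicate 1 and 29.4 in replicate 2, where it was the gene's best. Its global IDR of 0.0584 was the lowest at any of the 7 genes in the series-wide list, and it was 0.137 in the second series-wide list. The third, at chrX:11476932-11477241 in an intron, had a signal of 51.0, with 29.2 in replicate 1 and 20.7 in replicate 2. Its global IDR was 0.446 in the series-wide list and 0.115 in the second series-wide list. By contrast, the region at the outer start site of lin-14, with its summit 36 bp inside the gene, had a signal of 34.1. Of the 37 regions of lin-14, 23 lay in introns, 6 in untranslated exons, 5 in coding exons and 3 outside genes.

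The gene hbl-1, whose product is a zinc finger factor related to fly Hunchback, was ranked above the median gene, at the place of 62.1 given above. It lies at chrX:5822142-5827755 on the plus strand (WBGene00001824) and had 11 ranked regions. The best, at chrX:5826073-5826382 in an intron, had a signal of 47.7, with 9.66 in replicate 1 and 27.9 in replicate 2, and is high in replicate 2 alone. The second, at chrX:5821065-5821374, 922 bp upstream of the start, had 44.6, with 23.3 in replicate 1 and 28.2 in replicate 2. The replicates were closer for it, and its global IDR was 0.103 in the second series-wide list, against 0.339 in the series-wide list. The third, at chrX:5821553-5821862, 434 bp upstream, had 35.0, with 22.7 in replicate 1 and 13.7 in replicate 2.

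The gene lin-28, which encodes the RNA-binding protein that blocks maturation of let-7, was nearly empty. It lies at chrI:8407630-8410804 on the minus strand (WBGene00003014). Its window of 5175 bp held 1 region in the series-wide list, 0 in replicate 1 and 3 in replicate 2. The 1 region, at chrI:8407482-8407791, lies at the far end of the gene in an untranslated exon and is nearer to the start of the neighbouring gene F02E9.1, 809 bp away. Its signal was 6.79, place 115494 of 126002, with a global IDR of 0.657. Overlapping regions had 6.02 in replicate 1, with the summit outside the lin-28 window, and 12.7 in replicate 2. Replicate 2 had regions of 16.4 and 13.0, 98 and 565 bp downstream of the start site inside the gene, and replicate 1 had none there.

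In regions per kb of window, lin-28 had 0.193, with 3.76% of protein-coding genes lower, and a median gene had 1.31. A count of 1 region or fewer occurred in 4.55% of all protein-coding genes, and 714 of them had 0. In replicate 2 its density was 0.580 per kb, above 20.1% of genes. The other 6 genes had 1.34 to 1.66 regions per kb in the series-wide list, at the 51.6th to the 78th percentile, so the counts of these 6 were not unusual for their length. In replicate 2, lin-41 had 18 regions or 1.86 per kb, more than 98.8% of genes, and it had 13 in replicate 1 (1.34 per kb, 69.6%), so this density did not recur.

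**Figure D3:**
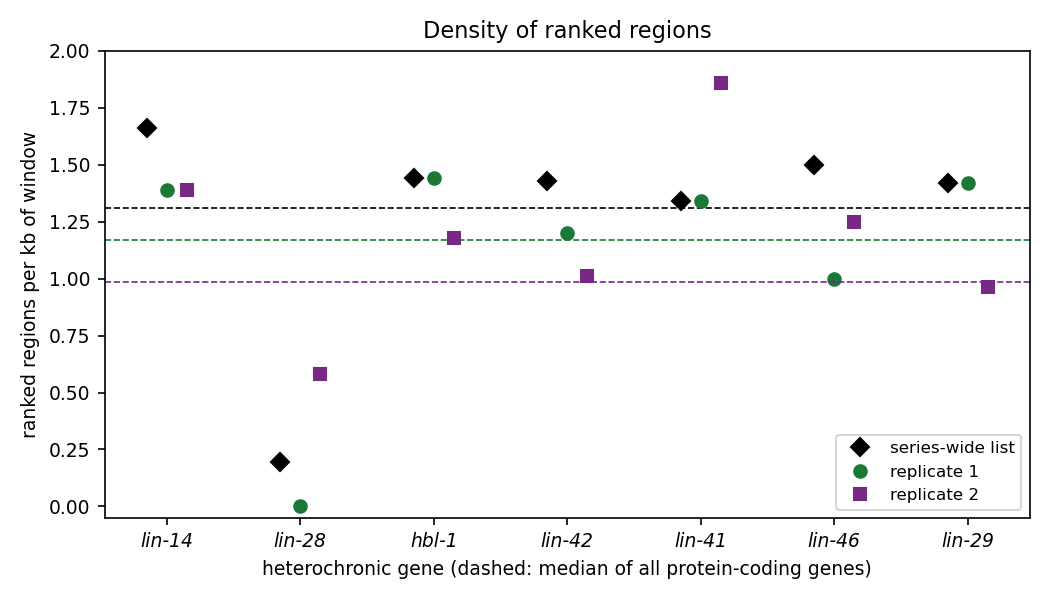
Ranked regions per kb of each gene's window (vertical axis) in the series-wide list (black diamonds), replicate 1 (green circles) and replicate 2 (purple squares), with dashed lines in the same colours at the medians of all protein-coding genes, 1.31, 1.17 and 0.987. Points for 6 genes lie between 0.964 and 1.86, and lin-28 lies lowest in each list, at 0.193, 0 and 0.580.

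Of the genes that pace or end larval life, lin-42 and lin-29 each had their best region just upstream of the outermost start site. The gene lin-42 lies at chrII:1233236-1252359 on the minus strand (WBGene00018572), with 5 start sites and 31 regions. Its best region, at chrII:1252782-1253091, 578 bp upstream, had a signal of 51.4, with 24.4 in replicate 1 and 29.4 in replicate 2. It was overlapped in both replicates, with a global IDR of 0.0876 in the second series-wide list and 0.417 in the series-wide list. The second, at chrII:1239909-1240218 in a coding exon and 37 bp inside an internal start site, had 48.3, with 25.6 in replicate 1 and 23.1 in replicate 2, and a global IDR of 0.147. The third, at chrII:1233917-1234226, in an untranslated exon, had 44.5, with 12.3 in replicate 1 and 30.4 in replicate 2, where it was the gene's best.

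The gene lin-29, the last of the pathway to act, came second by its lowest global IDR among the 7 genes. It came after lin-14 in the series-wide list, where 2 lin-14 regions lie lower, and after lin-42 in the second series-wide list. It lies at chrII:11917642-11935343 on the minus strand (WBGene00003015), with 3 start sites and 28 regions. The region at chrII:11935757-11936066, 569 bp upstream of the start, had a signal of 51.7, with 25 in replicate 1 and 27.4 in replicate 2. Its global IDR was 0.0899 in the series-wide list and 0.0916 in the second series-wide list. The next 2, in introns at chrII:11932123-11932432 and chrII:11934964-11935273, had 41.6 and 40.6. The first of these had 17.6 in replicate 1 and 24.2 in replicate 2, and the second 22.8 in replicate 1 and 18.1 in replicate 2. The best regions of lin-29 in the replicates' own lists lay elsewhere, with 32.2 in an intron in replicate 1 and 29.0 in a coding exon in replicate 2.

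The gene lin-41, which encodes a TRIM-NHL RNA-binding protein, had its highest regions inside the gene. It lies at chrI:9334800-9342496 on the minus strand (WBGene00003026) and had 13 regions. The best, at chrI:9337774-9338083 in a coding exon, had a signal of 43.9, with 23.6 in replicate 1 and 18.8 in replicate 2. The next 2, at chrI:9337142-9337451 in a coding exon and chrI:9338819-9339128 in an intron, had 39.4 and 38.8. The region at the outer start site had 36.4, with its summit 15 bp inside the gene. Signals at lin-41 ran from 13.2 to 43.9, and its median of 34.0 was the highest of the 7 genes.

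The gene lin-46 shares its surroundings with other genes. It lies at chrV:12968855-12970730 on the plus strand (WBGene00003031), and 1 of its 6 regions was nearest to its own start site. The best, at chrV:12970390-12970699 in a coding exon and 1690 bp inside the gene, lies 565 bp from the start of pnn-1 and had a signal of 38.4, with 19 in replicate 1 and 24.9 in replicate 2. The second, at chrV:12969881-12970190, had 29.9 and is also nearest to pnn-1. The third, at chrV:12967506-12967815, had 25.2 and is 165 bp from the start of R186.8. The region nearest to the lin-46 start, 224 bp inside the gene, had 9.99. Over all 7 genes, 112 of the 127 regions were nearest to a start site of their own gene.

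**Figure D4:**
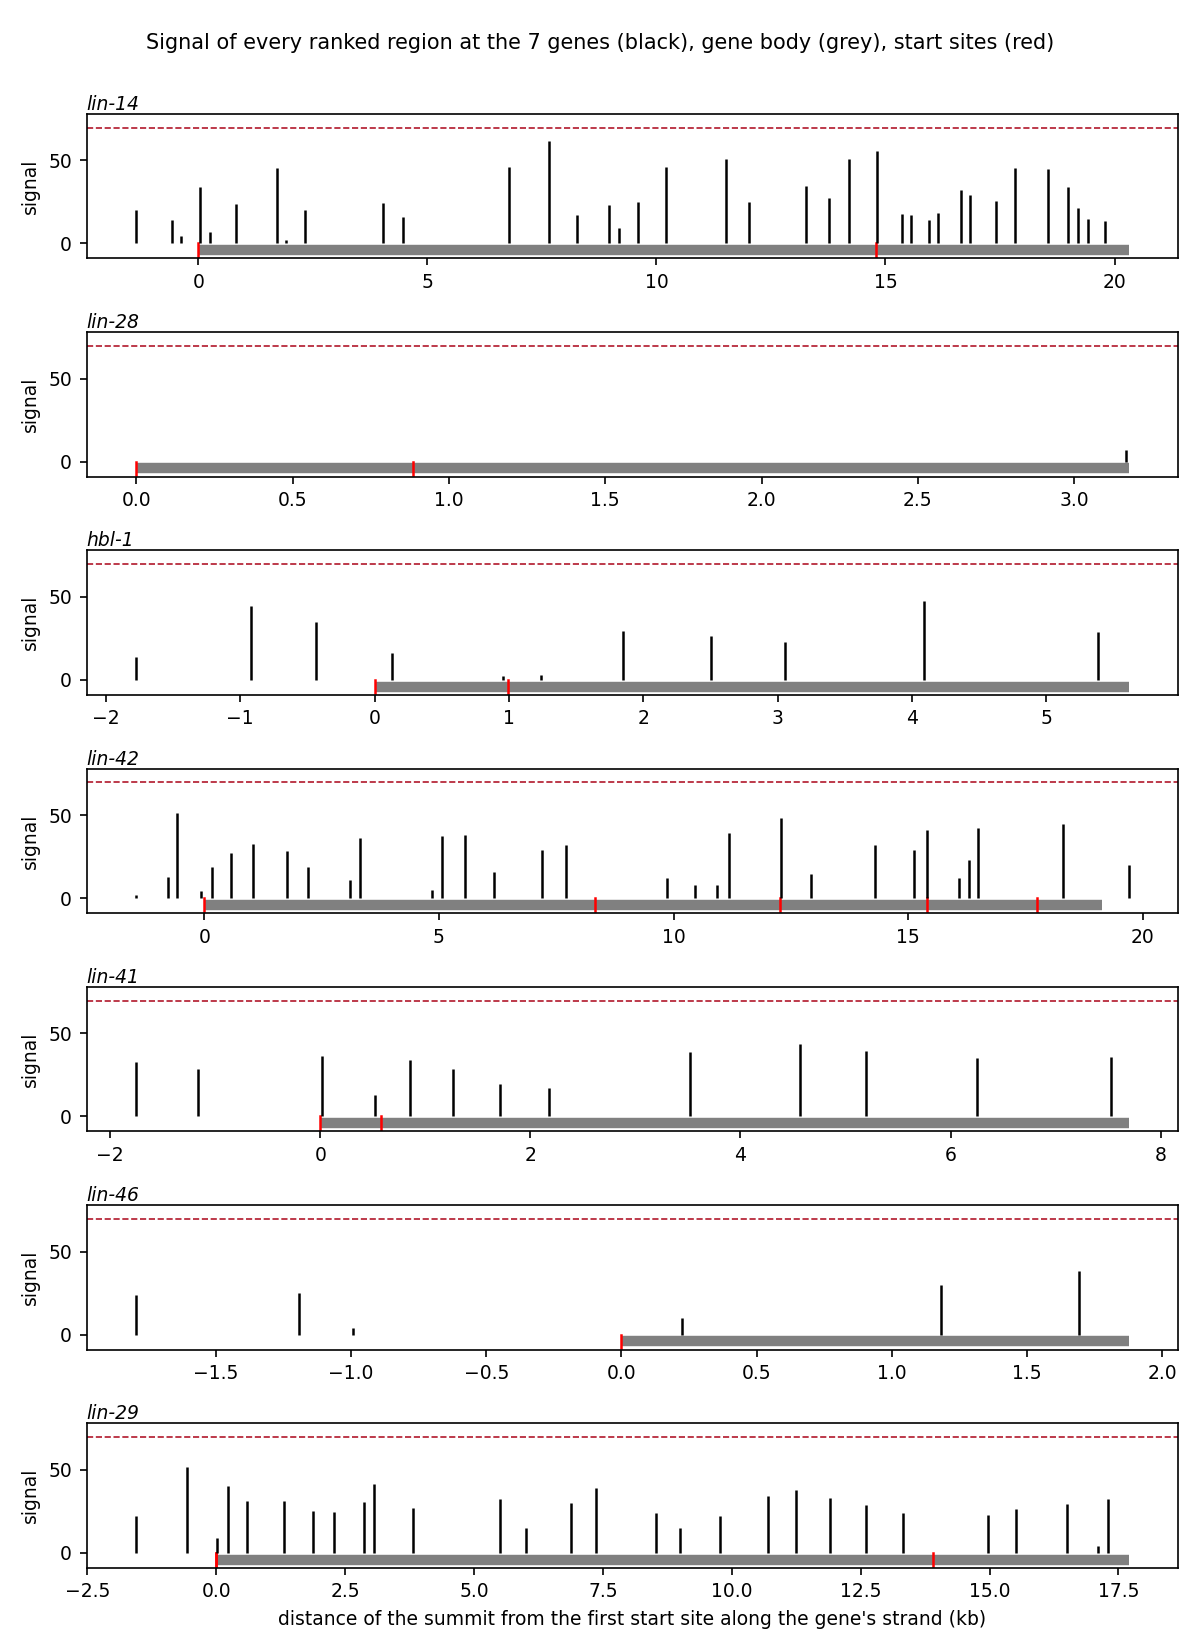
For each gene, black lines give the signal (caller's scale, vertical axes) of every region of the series-wide list at its summit's distance in kb from the first start site along the gene's strand (horizontal axes, which differ in length), with the gene body in grey, start sites in red and a dashed line at 69.7, under which 10% of the passing list lies. No line reaches 69.7, the lines of lin-14 are highest well inside the gene, those of lin-42 and lin-29 are highest just upstream of the first start site, and lin-28 has 1 line of 6.79 at its far end.

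Of the 127 regions, 81 were overlapped by a region of each replicate, 63.8% (exact 95% binomial interval 54.8 to 72.1%). The share was 55.8% of all ranked regions and 56.4% of all regions assigned to a gene. The regions of the 2 replicates did not have to overlap each other, and 1 replicate region could count for several neighbouring regions. A further 22 regions were overlapped in replicate 1 alone, 16 in replicate 2 alone and 8 in neither. Neighbouring regions overlap, and the 127 merge into 105, so the interval counts them as more independent than they are. Within the 81 regions, Spearman's rho between the replicates' signals was -0.0561, and over the 70339 such regions of the whole list it was 0.204. The regions of 1 gene share chromatin and the ranking, so this is given as a description. The best regions of the 2 replicates overlapped at 1 of the 6 genes that had a region in both, lin-46, beside 27.5% of 18704 protein-coding genes. Median signal was 16.3 at these genes and 14.8 over all regions in replicate 1, and 14.2 at these genes and 14.5 over all regions in replicate 2.

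**Figure D5:**
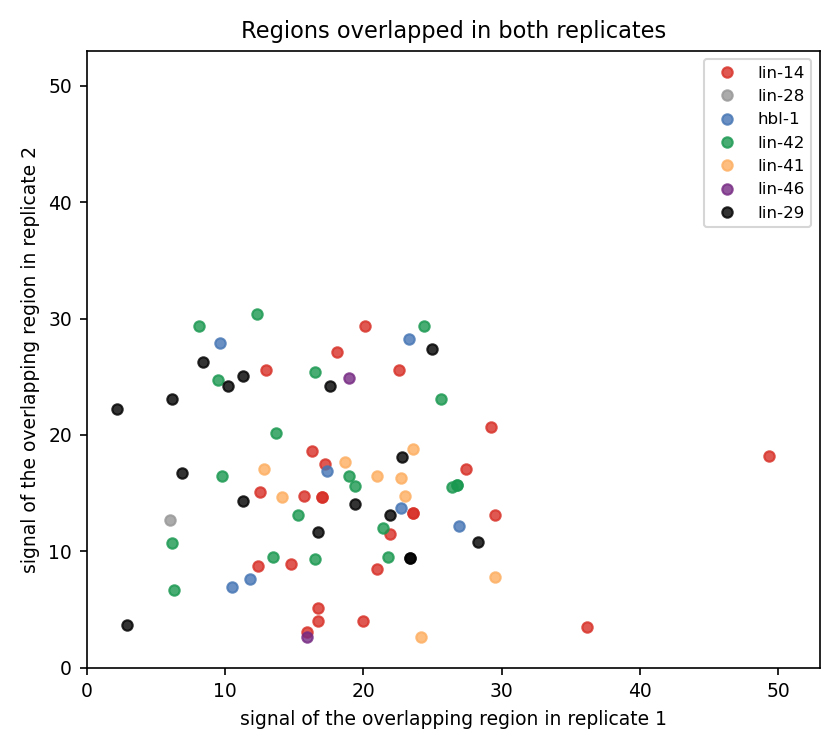
Each point is 1 of the 81 regions overlapped in both replicates, with the signal of the overlapping region in replicate 1 on the horizontal axis and in replicate 2 on the vertical axis (caller's scale), coloured by gene. The points form no diagonal (Spearman's rho -0.0561), and the lin-14 region with 49.3 in replicate 1 and 18.2 in replicate 2 lies apart at the right.

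By position, 69 of the 127 regions (54.3%) lay in introns, 26 (20.5%) in coding exons, 17 (13.4%) in untranslated exons and 15 (11.8%) outside genes. Over all regions assigned to a protein-coding gene the shares were 35.7% in introns, 37.7% in coding exons, 4.87% in untranslated exons and 21.7% outside genes. Within 500 bp of an own start site lay 19 regions, 15%, beside 27.8% of assigned regions within 500 bp of any protein-coding start. Most of the intron regions were those of 3 long genes, with 23 at lin-14, 21 at lin-29 and 20 at lin-42. GC content around the summit, over 100 bp to each side, was 40.9 ± 7.37% in the 127 regions and 38.3 ± 6.91% in all regions (mean ± SD over regions).

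The ETS core occurred in a smaller share of these regions than of all regions, and the share over all regions lay within the interval. CCGGAA or TTCCGG occurred within 100 bp of the summit in 6.30% of the 127 regions (8 regions, exact 95% binomial interval 2.76 to 12%), 9.18% of all regions and 9.16% of assigned regions. The longer word CCGGAAGT, searched on both strands and containing CCGGAA, occurred in 0 of 127, for which the exact interval reaches 2.86%, and in 0.603% of all regions. GGAA, which both words contain, occurred in 85.8% of the 127 regions and 87.9% of all regions. The 8 regions with CCGGAA were 2 each at lin-14, lin-42 and lin-29 and 1 each at hbl-1 and lin-41.

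In a list of 23 further genes of the pathway, 1 gene had a passing region, 4.35% of the list beside 1.30% of all protein-coding genes. This was ain-1, whose product acts with Argonaute proteins in microRNA silencing. Its region at chrX:16615077-16615386 in a coding exon had a signal of 82.0, place 215, with 57.2 in replicate 1 and 26.8 in replicate 2 and a global IDR of 0.00882. It is in the main passing list and not in the conservative list or in that of either replicate. At a global IDR of at most 0.05 the count was 5 of 23, 21.7%, beside 10.1% of all protein-coding genes. Besides ain-1 these were sea-2 (73.1), myrf-2 (70.7), which encodes a factor of the myelin regulatory family, puf-9 (69.7), a Pumilio-family RNA-binding protein, and nhl-2 (68.1), a cofactor of microRNA silencing, with the best signal in parentheses. All 5 lay above lin-14 in best signal. The nhl-2 region lay in a coding exon, 3794 bp downstream of an nhl-2 start, and was nearest to the start of F26F4.6. The median place of the 23 genes by best signal was 76.4 among all protein-coding genes, and 20 of them lay above 50. These genes held 7 to 38 regions each, beside a median of 6 over all protein-coding genes. A gene with more regions has more chances of a high signal or a low IDR. The part of region number in these places and shares was not tested.

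The microRNA genes that act on these genes, lin-4, let-7, mir-48, mir-84 and mir-241, had no passing region, 0 of 5 beside 1.30% of protein-coding genes. Set among the protein-coding genes, whose windows include longer gene bodies and so are not like theirs, their median place by best signal was 6.94. The highest was mir-84, with a region of 43.0 whose summit lay 28 bp upstream of the annotated gene and which had 17.5 in replicate 1 and 23.6 in replicate 2. Next came mir-241 with 33.1, lin-4 and mir-48 with 25.4 each.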

How the data were processed

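ETS-5::GFP ChIP-seq of whole L1 larvae was used as 4 ranked and 4 passing region lists, for 1 group of 2 biological replicates. The build is ce11, per the labels, and aligner and caller were not given in the sources used here. Reads were not used, so depth is unknown. Each deposited signal value is the caller's value for a region, on a scale that is not stated. The deposited score equals −log2 of the global IDR multiplied by 125 and ends at 1000, as a check of the ranked files showed. Their deposited −log10 values give the global IDR itself. Which 2 lists either series-wide ranking compares is not stated in the labels. No control sample was analysed here. Of the ranked regions, 300 score at least 830, the lowest passing score, and 250 are in the main passing list.

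Summits were placed on the Ensembl release 115 annotation (WBcel235, 1-based) with Python 3.11.15, NumPy 2.4.6 and SciPy 1.17.1; figures used Matplotlib 3.10.9. Replicate regions were matched by an overlap of at least 1 bp, taking the region of largest overlap and, between equal overlaps, the highest signal. Words were looked for on both strands, up to 100 bp from the summit. The assignment was tested on simulated data. Intervals are exact 95% binomial and cover counting error only. No test between groups exists in this design. The genes and lists were chosen with earlier results of these data known. Named regions are the 3 of highest signal at each gene, and named list genes the 4 of highest best signal and any with a passing region; nhl-2 and the regions at start sites or with the ETS core were named after their values were seen. Alternatives were other windows, lists, IDR limits, overlaps and words, and each replicate left out.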

Additional observations from a re-analysis of the deposited data

How the results depend on the processing

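Of 88 recomputed values, 65 stayed within the limits set for an unchanged value. Whether a value reversed was not assessed. For the median place and the best signals, except at lin-28, the limit was the SD of the values in the 2 replicates' own lists. Those values are themselves among the 88, so 65 is not a measure of firmness. The count of genes with a passing region was 0 under all 8 alternatives. The count at a global IDR of at most 0.05 was 0 under 9 of 10 and became 2 at a limit of 0.1. For both counts the narrower windows lie within the main one, so after a main count of 0 they could only give 0. The same holds for an IDR limit of 0.01. These settings are among the 65 and say nothing about how firm the counts are. The number of regions at the 7 genes was 74 when gene bodies were left out, and 107 to 113 in the list of 1 replicate. The share overlapped in both replicates was 50.4% when the overlap had to cover 50% of both regions and 37.0% when summits had to lie within 100 bp. The share with an ETS word was 0% for CCGGAAGT and 85.8% for GGAA, as the longer and the shorter word make it. The median place by best signal was 54.8 to 75.3 in the list of 1 replicate. Counting a region only where its own gene's start is nearest, an alternative chosen after seeing the data, gave 112 regions and a median place of 72.3. Best signals of single genes moved most when replicate 1 or 2 was left out, and all-gene medians of best signal were 26.1 in replicate 1, 23 in replicate 2 and 43.9 in the series-wide list. For lin-14 the best signal was 29.4 without replicate 1 and 49.3 without replicate 2. For lin-28 it was 16.4 without replicate 1 and 6.79 in the series-wide list. No value could be had without replicate 2 or without the gene body, since lin-28 has no region there. Signals of different lists have no known common scale, so these moves are not read as changes at a gene. By place, lin-28 was lowest of the 7 genes both in replicate 2 (17.2) and in the series-wide list (3.60). No paired analysis was possible because there is 1 group. Depth is unknown, so a place near the middle of a ranked list cannot be called bound or unbound.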

Other observations

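The best lin-42 region, printed above, holds 3 copies of TTAGGC, the repeat unit of C. elegans telomeres, within 100 bp of its summit, which was noticed after seeing its sequence. At least that many copies (both strands) occurred in 821 ranked regions, 0.652%, whose median signal was 26.9, and in 6 of the 250 passing regions, 2.40%. At least 1 copy occurred in 21 of the 127 regions of the 7 genes, 16.5%, beside 5.31% of all regions assigned to a protein-coding gene and 6.40% of the passing regions. The 21 were 9 of 31 at lin-42, 9 of 28 at lin-29, 2 of 37 at lin-14 and 1 of 13 at lin-41, with 0 at lin-28, hbl-1 and lin-46. The word was taken from 1 of these 127 regions, and neighbouring regions of a gene are not independent, so these shares are a description only. The part of this repeat in the signals was not tested.

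The nearest region of the main passing list lay 31.9 kb from lin-29 (signal 77.5, nearest start W03C9.5), 44.7 kb from lin-14 (77.4, nearest start C35C5.8) and 49.9 kb from lin-41 (81.4, nearest start rtcb-1). For lin-42, lin-28, lin-46 and hbl-1 it lay 344, 389, 422 and 426 kb away.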
